A study of Bombyx mori with 9 samples.

Results

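Among the features measured in silk glands of the silkworm Bombyx mori were 1122 annotated models of noncoding RNA, that is, of RNA that is not translated. Of these, 25 were above 0 in at least 3 of the 9 libraries and are described here, out of 15745 features in all. They comprised 10 ribosomal RNA (rRNA) models, 5 spliceosomal RNA models, 3 models of the RNA of the signal recognition particle and 7 others, and no transfer RNA (tRNA) model (0 of 427). The members were chosen by that count of libraries alone, so the fact that they were detected is not a finding. In addition, 13 models were above 0 in 1 or 2 libraries, and 1084 were listed at 0 in all 9.

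RNA came from silk glands of 3 pure strains, A306, XH and A798, which the submitters chose for their differing gland weights. The 2 gland weights listed per library lay between 0.596 and 0.733 g in A306, 0.889 and 1.041 g in XH, and 1.189 and 1.441 g in A798. A306 and XH are thus the lighter strains. Larvae of every strain were fed under the same regulated conditions (25 °C, 71% humidity) and sampled on day 5 of the fifth larval instar. From total RNA, 3 libraries per strain were made. The labels do not say that replicates of a strain were separate animals, and a p-value here covers only the variation among these libraries, part of which may be technical. Values are FPKM, fragments per length of the model and per mapped fragment of the library (scaled by a constant), as deposited; the depth of the libraries is unknown.

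Ribosomal RNAs form the core of the ribosome: the small subunit is built on 1 long rRNA, and the large subunit on another long rRNA together with the short 5.8S and 5S rRNAs. The signal recognition particle, a complex of RNA and protein, brings ribosomes that make secreted proteins to the endoplasmic reticulum, the entry to the secretory route that silk proteins take. Spliceosomal RNAs remove introns from messenger RNA, U3 and other small nucleolar RNAs guide the maturation of rRNA, and RNase MRP and RNase P are enzymes with an RNA core that cut precursors of rRNA and of tRNA. Most of these RNAs carry no poly(A) tail. Whether the libraries were made by selection for poly(A) or by removal of rRNA is not given in the sources used here, so the values below say how much of each RNA was left in these libraries and not how much a gland cell holds.

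The 3 libraries of each strain held transcripts of the silk gland. Fibroin light chain (FIBL) ranged from 19575 to 31390 FPKM, P25 from 3763 to 6021 FPKM and the fibroin heavy chain gene (BGIBMGA005111) from 262 to 1518 FPKM. The summed FPKM of 4 fat body and haemolymph transcripts (SP1, SP2, SP3 and LP) lay between 16.0 and 21.9 in the A306 libraries, between 793 and 842 in XH, and between 237 and 247 in A798. The 1 haemocyte marker that could be matched, PRO-PO2, reached 0.16 FPKM at most in A306, 3.97 in XH and 0.81 in A798. The summed FPKM of the muscle transcripts A1 and MLC-2 lay between 69.5 and 77.2 in A306, between 61.6 and 68.0 in XH, and between 35.5 and 40.7 in A798. In whole glands, fewer cells of a type and less RNA per cell cannot be told apart.

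Annotated models and detected models differed widely by class. The most numerous rRNA models, 90 of 5S rRNA, were all listed at 0, whereas 4 of 6 models of 5.8S rRNA, 4 of 10 of large subunit rRNA and 2 of 4 of small subunit rRNA were among the 25. Of 392 U1 models 6 were above 0 in any library and 0 in as many as 3; of 15 U2 models 9 were above 0 in some library and 5 were members. U4, U5, U6 and U6atac RNAs, with 3, 6, 59 and 10 models, were listed at 0 throughout. Both annotated RNase P models, the 1 RNase MRP model, both models of the small nucleolar RNA SNORA73 and 2 of 3 U3 models were members. All 74 microRNA models were at 0. So were the tRNA models of the amino acids that make up most of fibroin: 47 for glycine, 43 for alanine, 29 for serine and 11 for tyrosine. A listed 0 can be a failed estimate, so these counts describe the table and not the gland.

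Several models carried the same value in every library and so do not count as separate measurements. The 5.8S rRNA models ENSRNA022709902, ENSRNA022710102 and ENSRNA022710516 were identical in all 9 libraries, as were the U2 models ENSRNA022710576, ENSRNA022711165, ENSRNA022711166 and ENSRNA022711168. The 25 members thus gave 20 distinct profiles, of which 8 were above 0 in all 9 libraries. How the authors' counting shared reads between such copies is not given in the sources used here. Members above 0 numbered 23, 19 and 18 in the 3 A306 libraries, 18, 17 and 12 in XH, and 20, 15 and 20 in A798, with the lowest number in XH replicate 3.

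**Figure D1:**
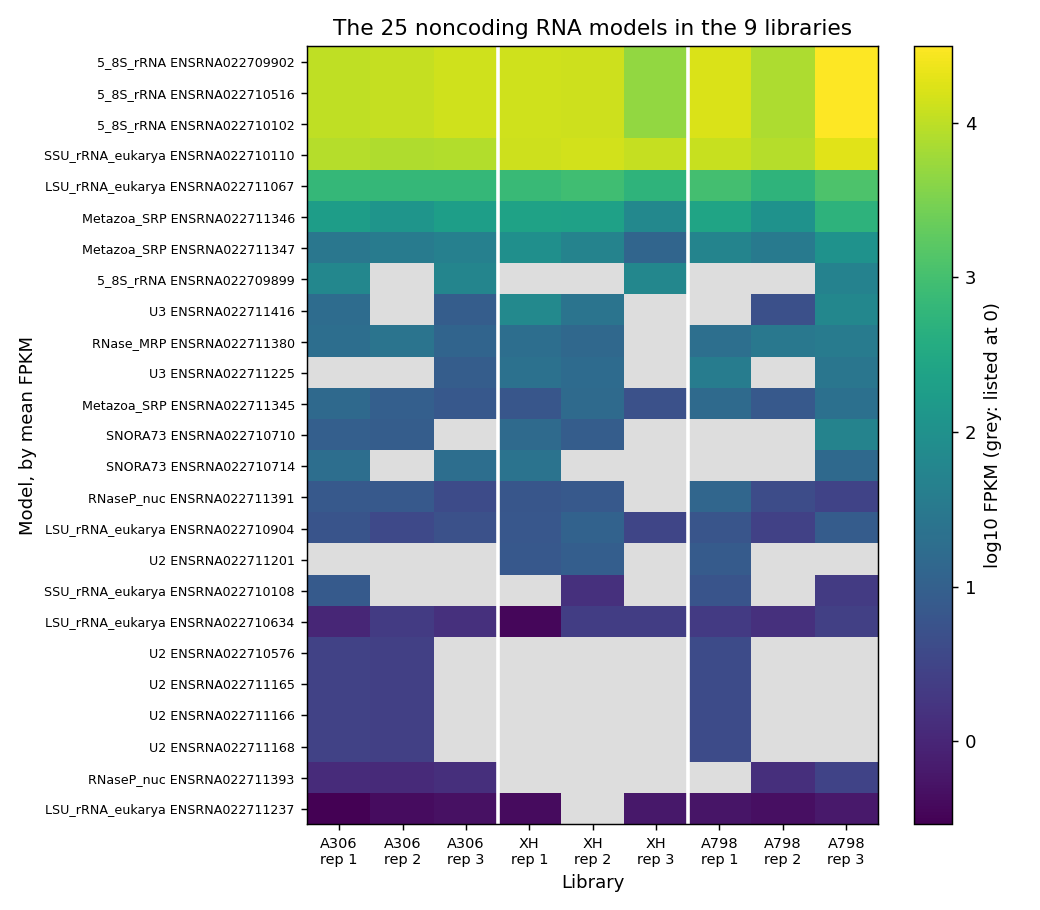
FPKM of the 25 noncoding RNA models (rows, ordered by mean FPKM, named as in the deposited table) in the 9 libraries (columns, 3 per strain), on a log10 colour scale, with grey for models listed at 0. The 4 models at the top stand at 4828 FPKM or more in every library, while most models from the middle down have grey cells, above all in XH replicate 3, where 12 members were above 0.

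The 5.8S rRNA profile had the highest FPKM of the members, taken as a mean over all 9 libraries. Each of its 3 identical models had 10375, 11153 and 13449 FPKM in A306 libraries 1 to 3, 13459, 13084 and 4828 FPKM in XH, and 15898, 7383 and 31320 FPKM in A798. XH replicate 3 was the lowest and A798 replicate 3 the highest of all 9, a 6.49-fold range, and the 3 strains overlapped. Means were 11659 ± 1598 FPKM in A306, 10457 ± 4879 in XH and 18201 ± 12133 in A798 (SD, n = 3 each). On the scale of log2(FPKM + 1), the change was -0.41 ± 0.56 (SE) for A306 against A798 (95% interval -1.71 to 0.88), -0.70 for XH against A798 (-2.00 to 0.59) and 0.29 for A306 against XH (-1.004 to 1.59). None passed the test (limma adjusted p = 0.578, 0.384 and 0.725). The direction rested on the extreme libraries: without A798 replicate 3 the change of A306 against A798 was 0.10, and without A798 replicate 2 it was -0.95. For XH against A798 it was -0.19 without A798 replicate 3, -0.22 without XH replicate 3 and -1.24 without A798 replicate 2, and for A306 against XH -0.20 without XH replicate 3. The remaining 5.8S member, ENSRNA022709899, stood at 50.0 to 63.0 FPKM in 4 libraries (A306 replicates 1 and 3, XH replicate 3 and A798 replicate 3) and at 0 in the other 5. In A306 against A798 it was not called as deposited (limma adjusted p = 0.522). Relative to the mean log2 of the rRNA models it was called higher (limma adjusted p = 0.0242). That reference is the mean over all rRNA models tested. It includes this model itself, with its zeros, and counts the 5.8S profile 3 times, so nothing is concluded from this call. The calls given below under this setting use the same reference.

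Small subunit rRNA was lower in every A306 library than in any XH library, though not past the threshold of the test as deposited. Model ENSRNA022710110 had 8740, 7769 and 8248 FPKM in A306, 13193, 14190 and 11555 in XH, and 11649, 8611 and 18430 in A798. The A306 and XH libraries did not overlap, while A798 replicate 2 lay within the range of A306. Means were 8253 ± 485 FPKM in A306, 12980 ± 1330 in XH and 12897 ± 5027 in A798 (SD, n = 3 each). The log2 change was -0.65 ± 0.24 (SE, 95% interval -1.20 to -0.10) for A306 against XH, -0.57 ± 0.24 (-1.13 to -0.02) for A306 against A798 and 0.08 ± 0.24 (-0.48 to 0.63) for XH against A798. Over all 4636 features tested, none of these passed (limma adjusted p = 0.0684, 0.0829 and 0.847).

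Whether small subunit rRNA passed turned on several settings. The value was lower in A306 under all 23 alternatives tried in each comparison, and passed the threshold under 7 of them against XH (adjusted p between 0.000162 and 0.711 over all 23) and under 5 of them against A798 (between 0.000785 and 0.837). Both lowest values came with quantile normalization, where the SE was 0.08 and not 0.24 as deposited. The log2 changes under that scaling were -0.81 against XH and -0.61 against A798. The part of the smaller SE in these adjusted p values was not tested. With TMM scaling, which sets most genes level between libraries, the log2 change was -0.80 against XH (adjusted p = 0.0459) and -0.97 against A798 (adjusted p = 0.0215). With median centring it was -0.74 against XH (adjusted p = 0.0577) and -0.90 against A798 (adjusted p = 0.0274). The median log2 change of all features as deposited was 0.31 for A306 against A798 and 0.12 for A306 against XH, and TMM scaling brought both to within 0.01 of 0. Without A798 replicate 2 the change against A798 was -0.83 (adjusted p = 0.0108), and without A798 replicate 3 it was -0.28 (adjusted p = 0.152). Against XH, 4 of the 7 alternatives that passed were not scalings but other sets of libraries. These were the fit to the 2 strains alone (adjusted p = 0.00275), the fits without A798 replicate 2 (0.0205) or A798 replicate 3 (0.00644), and the one without both A798 replicate 3 and XH replicate 3 (0.00906). The strains share one estimate of spread, so A798 libraries enter this comparison too. As a percentage of the summed FPKM of all BGIBMGA genes, the features other than noncoding RNA models, small subunit rRNA stood at 1.60, 1.45 and 1.58 in A306, 2.70, 2.90 and 2.31 in XH, and 2.47, 1.83 and 3.95 in A798. On that scale no A306 library reached any library of the other strains (exact two-sided permutation test p = 0.1 against XH and against A798, the smallest that 3 libraries against 3 allow). Of the other tissue transcripts named above, those of fat body and PRO-PO2 were likewise lowest in A306, while the muscle sum was highest there. The fat body sum was also higher in XH (793 to 842 FPKM) than in A798 (237 to 247 FPKM), where small subunit rRNA averaged 2.64% and 2.75% on the same scale of BGIBMGA genes. The part of other tissues in this difference was not tested. The second small subunit model, ENSRNA022710108, was above 0 in 4 libraries, at 7.71 FPKM in A306 replicate 1, 1.43 in XH replicate 2, and 5.86 and 2.20 in A798 replicates 1 and 3.

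Large subunit rRNA was read mainly through model ENSRNA022711067, with 666, 648 and 657 FPKM in A306, 744, 907 and 556 in XH, and 992, 545 and 1208 in A798. The A306 libraries lay close together and within the ranges of both other strains. Means were 657 ± 8.93 FPKM in A306, 736 ± 175 in XH and 915 ± 338 in A798 (SD, n = 3 each), and the log2 changes of -0.40, -0.27 and -0.14 for A306 against A798, XH against A798 and A306 against XH did not pass (limma adjusted p = 0.287, 0.528 and 0.754). Without A798 replicate 2, A306 against A798 was called at -0.74 (adjusted p = 0.0192, between 0.0192 and 0.873 over 23 alternatives), and without A798 replicate 3 the change was -0.16 (adjusted p = 0.675). For XH against A798 it was -0.60 without A798 replicate 2 (adjusted p = 0.0550), -0.03 without A798 replicate 3 and -0.08 without XH replicate 3. The other large subunit members were far lower: ENSRNA022710904 ranged from 2.71 to 11.3 FPKM, ENSRNA022710634 from 0.35 to 2.62, and ENSRNA022711237, at most 0.63 FPKM, fell under the minimum of 1 FPKM in 3 libraries set for the test and was the 1 member not tested.

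Ratios within a library, which a common scaling factor leaves unchanged, showed that FPKM of the rRNA models did not stand in a fixed proportion in these libraries. Large subunit FPKM was 7.62%, 8.34% and 7.96% of small subunit FPKM in A306, 5.64%, 6.39% and 4.81% in XH, and 8.52%, 6.33% and 6.55% in A798. Each A306 library was above each XH library (exact two-sided permutation test p = 0.1), and A798 overlapped both. Small subunit FPKM per 5.8S FPKM was 0.842, 0.697 and 0.613 in A306, 0.980, 1.09 and 2.39 in XH, and 0.733, 1.17 and 0.588 in A798. Here the A306 libraries were all below those of XH (exact p = 0.1), and XH replicate 3 stood above the other 8. These were 2 of 5 ratios computed, each in 3 comparisons.

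**Figure D2:**
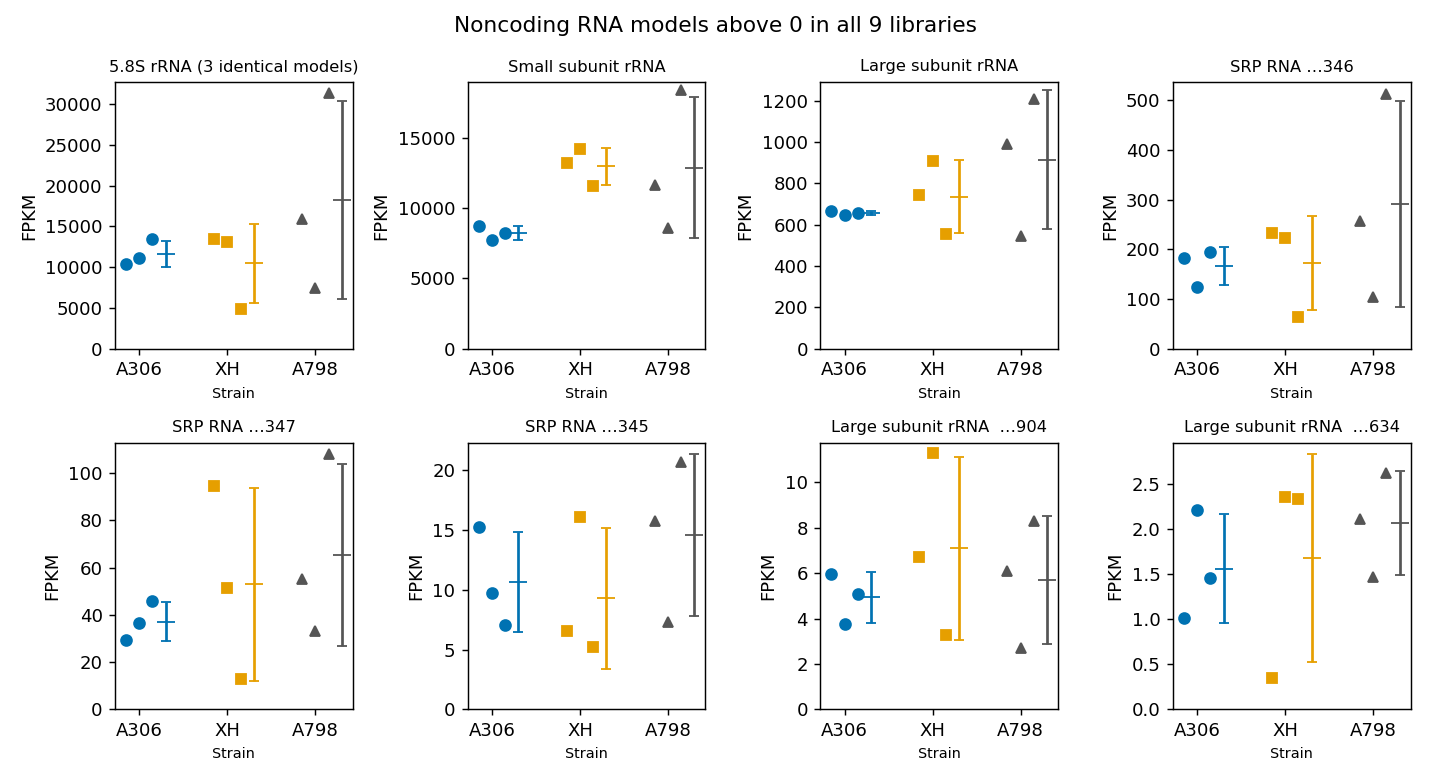
FPKM of the 8 distinct profiles above 0 in all 9 libraries, by strain; points are libraries and the bars show mean ± SD (n = 3). The last 3 digits of the identifier mark the models of the signal recognition particle (SRP) and of the lower large subunit models. For small subunit rRNA the 3 A306 libraries (7769 to 8740 FPKM) lie below all 3 of XH; elsewhere the strains overlap, with A798 spread widest for 5.8S rRNA.

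As a share of the FPKM sum of a library, rRNA models made up 6.91%, 7.22% and 8.62% in A306, 9.99%, 9.99% and 5.05% in XH, and 11.3%, 6.23% and 19.6% in A798. All other noncoding RNA was minor, since rRNA was between 99.0% and 99.7% of the summed FPKM of all 1122 models. The rRNA shares averaged 7.59 ± 0.910% in A306, 8.34 ± 2.85% in XH and 12.4 ± 6.73% in A798 (SD, n = 3 each). Strains overlapped in every pair, with differences of -4.79 percentage points for A306 minus A798, -4.03 for XH minus A798 and -0.76 for A306 minus XH (exact two-sided permutation test p = 0.4, 0.4 and 0.8). Without A798 replicate 3 the differences from A798 were -1.19 and -0.43 percentage points (exact p = 0.7 and 1.0). Without A798 replicate 2 they were -7.86 and -7.10 percentage points (exact p = 0.1 in both, the smallest that 3 libraries against 2 allow). Counting identical models once lowered the shares to 3.71 ± 0.349% in A306, 4.68 ± 1.21% in XH and 6.31 ± 3.27% in A798.

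**Figure D3:**
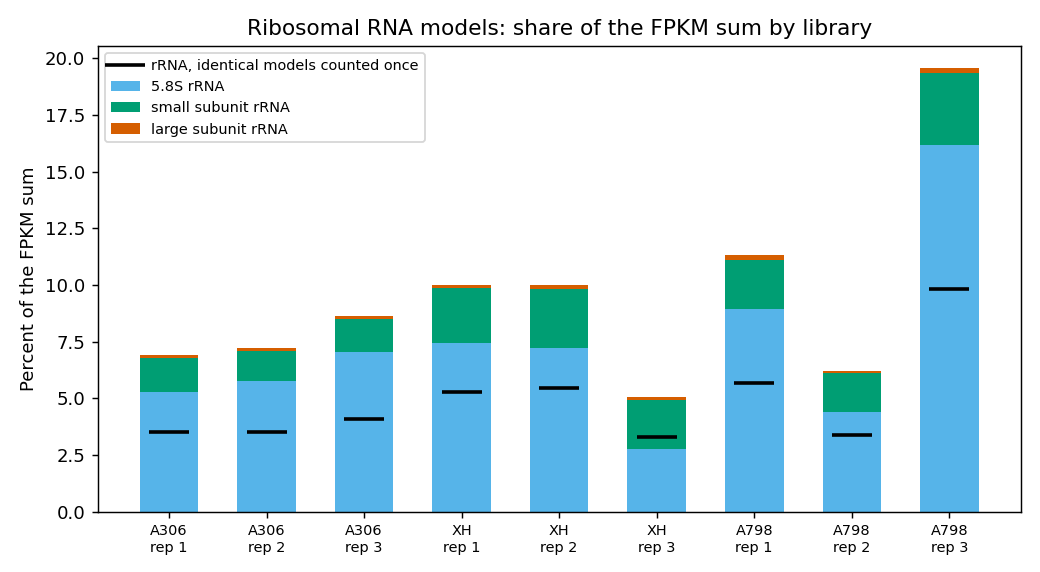
Share of the summed FPKM of each library taken by 5.8S, small subunit and large subunit rRNA models, stacked, in percent; black marks give the rRNA share with identical models counted once. The total runs from 5.05% in XH replicate 3 to 19.6% in A798 replicate 3, and most of that range is 5.8S rRNA.

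By component, 5.8S models took 6.05 ± 0.910% of the FPKM sum in A306, 5.798 ± 2.64% in XH and 9.85 ± 5.94% in A798. Small subunit models took between 1.34% and 1.49% in A306, 2.19% and 2.61% in XH, and 1.71% and 3.17% in A798, so that A306 lay below both other strains in this share too. Large subunit models took between 0.113% and 0.117% in A306, 0.107% and 0.169% in XH, and 0.110% and 0.210% in A798. The small subunit share differed between strains in the same direction as its FPKM, from which it is computed, and is no separate evidence.

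Of the 3 signal recognition particle models, ENSRNA022711346 was the highest. It had 183, 123 and 195 FPKM in A306, 234, 222 and 63.9 in XH, and 257, 105 and 514 in A798. XH replicate 3 was lowest and A798 replicate 3 highest, as for 5.8S rRNA, and the strains overlapped. Means were 167 ± 38.3 FPKM in A306, 173 ± 94.9 in XH and 292 ± 207 in A798 (SD, n = 3 each); the log2 changes were -0.55 (95% interval -2.07 to 0.98) for A306 against A798, -0.68 (-2.21 to 0.84) for XH against A798 and 0.13 (-1.39 to 1.66) for A306 against XH, none past the threshold (limma adjusted p = 0.530, 0.480 and 0.903). These values rested on single libraries. Without A798 replicate 3 the first was -0.0007 and the second -0.13, without XH replicate 3 the second was -0.07, and without A798 replicate 2 they were -1.14 and -1.28. The last of the 3 changed sign under TMM scaling, to -0.02, and without XH replicate 3, to -0.47. ENSRNA022711347 had 29.3, 36.4 and 45.8 FPKM in A306, 94.4, 51.5 and 12.8 in XH, and 54.97, 33.3 and 108 in A798. ENSRNA022711345 had 15.2, 9.75 and 7.03 FPKM in A306, 6.56, 16.0 and 5.20 in XH, and 15.7, 7.26 and 20.7 in A798. Their strains overlapped as well. Of the proteins of the particle, 1 gene was matched, SRP9, at 0 in A306, at 0.66 FPKM in XH replicate 1 and at 8.27 FPKM in A798 replicate 3, and at 0 in the other 4 libraries; it was not tested.

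Signal recognition particle model ENSRNA022711346 followed 5.8S rRNA from library to library. Over the 9 libraries, log2 values of 5.8S rRNA and ENSRNA022711346 had Pearson r = 0.972 (exact permutation p = 8.54e-05, adjusted over 10 pairs of models p = 0.000854) and Spearman rho = 0.967 (exact p = 0.000165, adjusted p = 0.00118). The permutations ignored strain, so the exact p of each correlation mixes differences between strains with variation among libraries of a strain. Leaving out XH replicate 3 and A798 replicate 3, the libraries farthest from the median of 5.8S rRNA, r was 0.882. After subtraction of strain means r was 0.974, and the same library was highest in both in 3 of 3 strains and lowest in both in 2 of 3. FPKM of 5.8S rRNA per FPKM of this RNA stayed between 56.6 and 90.5, a 1.60-fold range, although each of them alone spanned 6.49-fold and 8.04-fold. For ENSRNA022711347 r with 5.8S rRNA was 0.896, and 0.648 without XH replicate 3 and A798 replicate 3. ENSRNA022711345 was not among the pairs correlated. In A306 libraries 1 to 3 it fell from 15.2 to 7.03 FPKM, while 5.8S rRNA rose from 10375 to 13449 FPKM. In A798 it kept the order of 5.8S rRNA, and in XH only the lowest library was the same. All these values share the library's mapped total and, for any pair, the same preparation.

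**Figure D4:**
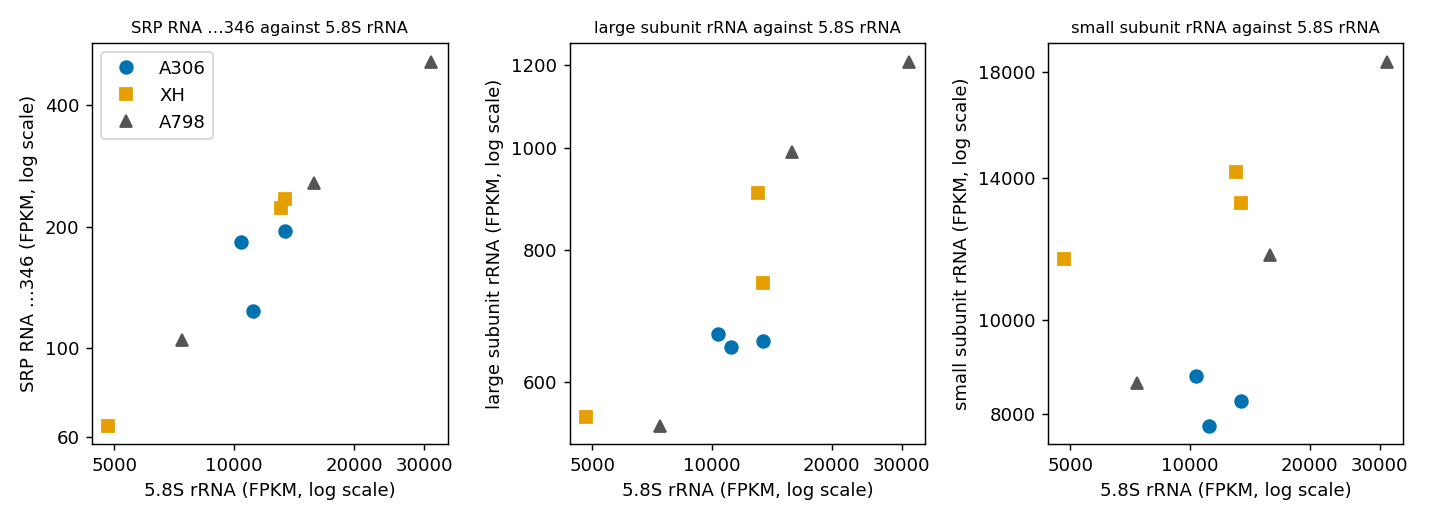
FPKM of signal recognition particle (SRP) RNA ENSRNA022711346, of large subunit rRNA and of small subunit rRNA (vertical axes, log scale) against FPKM of 5.8S rRNA (horizontal axes, log scale); each point is a library, marked by strain. The first panel is close to a line (r = 0.972), the second less so (r = 0.889), and in the third (r = 0.542) the A306 points lie below those of XH.

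Between 5.8S and large subunit rRNA, r was 0.889 (exact permutation p = 0.000455, adjusted p = 0.00227; rho = 0.867, exact p = 0.00451, adjusted p = 0.00902), and 0.828 without the same pair of libraries. Between large subunit rRNA and ENSRNA022711346 it was 0.900 (exact p = 0.000769, adjusted p = 0.00256; rho = 0.950, exact p = 0.000353, adjusted p = 0.00118), and 0.804 without A798 replicates 1 and 3. For 5.8S against small subunit rRNA the pooled relation did not pass (r = 0.542, exact p = 0.130, adjusted p = 0.130; rho = 0.533, exact p = 0.148, adjusted p = 0.148), although deviations from strain means had r = 0.871. Of the 10 pairs among 5.8S, small subunit and large subunit rRNA and the 2 higher signal recognition particle models, 7 had an adjusted p below 0.05 for r, and their r without the 2 farthest libraries ran from 0.592 to 0.882.

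The spread between libraries of one strain was wide for RNA this abundant. The within-strain SD of log2(FPKM + 1) was 0.78 for 5.8S rRNA, 0.33 for small subunit rRNA, 0.40 for large subunit rRNA and 0.92 for ENSRNA022711346. Among 346 BGIBMGA genes with a mean of at least 100 FPKM the median of that SD was 0.06 and the 95th percentile 0.34. Of those 346 genes, 342 had a lower SD than 5.8S rRNA, 328 a lower one than small subunit rRNA, 334 a lower one than large subunit rRNA and 343 a lower one than ENSRNA022711346.

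**Figure D5:**
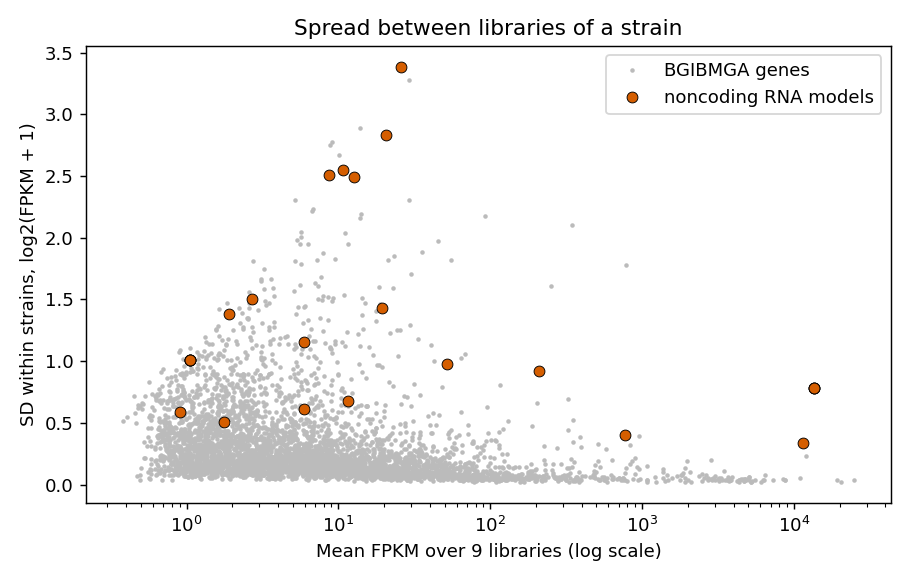
SD within strains of log2(FPKM + 1) (vertical axis) against mean FPKM over the 9 libraries (horizontal axis, log scale) for the features tested; grey points are BGIBMGA genes and large points noncoding RNA models. At means above 100 FPKM most genes lie near 0.06, and the 5.8S rRNA point stands at 0.78.

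Across the members, the fit to all 4636 features called 0 of 24 tested models in A306 against A798, where 47.5% of all features were called. In XH against A798 it called 0 of 24, against 33.7% of all features, and in A306 against XH 0 of 24, against 36.5%. At an unadjusted p below 0.05 the numbers were 1, 1 and 2 of 24 (54.4%, 42.8% and 44.3% of all features). Under the alternatives, 18 of 24 settings also gave 0 for A306 against A798, 23 of 24 for XH against A798 and 13 of 24 for A306 against XH, and none gave more than 2. The libraries of the 2 strains did not overlap for 0 of 24 models in A306 against A798 (56.7% of all features), for 1 in XH against A798 (46.3%) and for 2 in A306 against XH (50.1%). The median log2 change of the 24 models was -0.36, -0.66 and 0.29, and that of all features 0.31, 0.19 and 0.12, in the same order of comparisons. Since 24 models include copies with identical values, counts over them are not counts of independent RNAs.

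RNase MRP RNA (ENSRNA022711380), which takes part in rRNA maturation, was the model without overlap in XH against A798. It had 19.0, 14.3 and 0 FPKM in XH and 19.6, 30.3 and 35.7 FPKM in A798, with 18.7, 24.8 and 12.0 in A306. The fitted log2 change of -2.09 (95% interval -4.46 to 0.28, limma adjusted p = 0.163) includes the listed 0 of XH replicate 3. Without that library it was -0.71 (adjusted p = 0.178), and with a pseudocount of 0.1 in place of 1 it was -3.20 (adjusted p = 0.221). XH replicate 1 was just below A798 replicate 1. RNase P RNA, which trims precursors of tRNA, had 2 models. ENSRNA022711391 had 7.55, 7.23 and 4.15 FPKM in A306, 6.45, 7.29 and 0 in XH, and 13.3, 4.36 and 3.05 in A798, with overlap in each pair. ENSRNA022711393 had 1.23, 1.18 and 1.37 FPKM in A306, was listed at 0 in all 3 XH libraries, and had 0, 1.41 and 3.01 FPKM in A798. No fold is given against XH. The adjusted p was 0.0683 for A306 against XH, where the libraries did not overlap, and 0.0910 for XH against A798. Without A798 replicate 1 they were 0.00374 and 0.00213, and without A798 replicate 3 the first was 0.0224. Over 22 alternatives the adjusted p ran from 0.000530 to 0.887 for A306 against XH and from 0.00213 to 0.704 for XH against A798.

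Small nucleolar RNAs were seen in some libraries only. U3, which is needed for the first cuts of the rRNA precursor, had 2 members. ENSRNA022711416 had 17.6, 0 and 8.93 FPKM in A306, 66.9, 25.0 and 0 in XH, and 0, 4.99 and 62.3 in A798. ENSRNA022711225 had 0, 0 and 8.93 FPKM in A306, 22.3, 16.7 and 0 in XH, and 38.5, 0 and 27.7 in A798. SNORA73 model ENSRNA022710710 had 9.52, 8.84 and 0 FPKM in A306, 16.1, 9.04 and 0 in XH, and 0, 0 and 52.6 in A798, and its sister ENSRNA022710714 had 19.0, 0 and 19.3, then 24.2, 0 and 0, then 0, 0 and 15.02 FPKM in the same order. Values and zeros alternated within each strain, so no strain stood apart.

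These low values fell on steps. In the 7 cases in which both models of U3 or both of SNORA73 were above 0 in a library, their FPKM stood in a ratio of whole numbers no larger than 9, to within 0.021%. For SNORA73 the ratios were 1 to 2 in A306 replicate 1, 2 to 3 in XH replicate 1 and 7 to 2 in A798 replicate 3. For U3 they were 1 to 1 in A306 replicate 3, 1 to 3 in XH replicate 1, 2 to 3 in XH replicate 2 and 4 to 9 in A798 replicate 3. The largest step that such a ratio allows was worth 6.92 to 22.3 FPKM, and smaller steps could give the same ratio. Models of equal length that each held a few whole fragments would give such ratios. Lengths and fragment numbers were not analysed here. None of the 4 models was called between strains on the values as deposited. Relative to the mean log2 of the rRNA models, 1 of them, U3 model ENSRNA022711225, was called lower in A306 against A798 (adjusted p = 0.0246) and against XH (adjusted p = 0.0356), and no other alternative called any of the 4. Its log2 changes there were -2.17 and -2.05, and as deposited -2.28 and -1.79 (limma adjusted p = 0.330 and 0.477, SE 1.78). The change moved little, while this setting altered the estimates of spread. In A306 against XH the SE of small subunit rRNA went from 0.24 to 0.60 and that of RNase MRP RNA from 1.03 to 0.63. The part of spread in these calls was not tested.

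Of the spliceosomal RNAs, only U2, which pairs with the branch site of introns, reached 3 libraries, in 5 models. The 4 identical models had 2.82, 2.60 and 0 FPKM in A306, 0 in all 3 XH libraries, and 4.13, 0 and 0 in A798. ENSRNA022711201 was at 0 in all A306 libraries and had 7.04, 9.25 and 0 FPKM in XH and 7.99, 0 and 0 in A798. In A306 against XH it was not called as deposited (limma adjusted p = 0.171). It was called lower there without XH replicate 3 (adjusted p = 0.0369), without that library and A798 replicate 3 (0.0384), and relative to the mean log2 of the rRNA models (0.0132). The 5 U2 models were the members just inside the limit, above 0 in exactly 3 libraries. Just outside, in 2 libraries, were U1 model ENSRNA022710878 (75.6 and 67.8 FPKM, both in A798), U1 model ENSRNA022711095 (85.6 in A306 replicate 3 and 25.4 in XH replicate 1), U1 model ENSRNA022710913 (14.1 in XH replicate 2 and 16.8 in A798 replicate 1), U2 model ENSRNA022710941 (33.1 and 8.89, both in A798) and large subunit model ENSRNA022711068 (0.12 in XH replicate 3 and 1.52 in A798 replicate 2). Several models outside the limit were thus higher where present than those inside it.

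Proteins that work with these RNAs were read from BGIBMGA genes matched by words of their description. Of 3 genes for spliceosomal and splicing proteins, 2 rose and 0 fell in A306 against A798, where 37.9% of all features were called higher and 9.6% lower. In XH against A798 there were 0 and 0 calls (25.7% and 8.02% of all features), and in A306 against XH 2 rose and 0 fell (23.1% and 13.4%). U1 small nuclear ribonucleoprotein C (BGIBMGA008088), which helps U1 find the start of introns, had 57.3, 54.2 and 53.8 FPKM in A306, 41.9, 39.9 and 49.1 in XH, and 40.7, 43.1 and 36.4 in A798, with log2 changes of 0.45 for A306 against A798 (limma adjusted p = 0.00426) and 0.34 for A306 against XH (adjusted p = 0.0210). The U2 auxiliary factor gene (BGIBMGA007082), whose product helps U2 to the branch site, stood at 18.8 ± 1.11 FPKM in A306, 14.1 ± 1.00 in XH and 12.3 ± 1.28 in A798 (SD, n = 3 each), with changes of 0.58 (adjusted p = 0.00124) and 0.39 (adjusted p = 0.0113). Under TMM scaling and quantile normalization 0 of the 3 genes were called in either comparison, and under median centring 0 in A306 against A798. The median change of the list, 0.45 and 0.34, compares with 0.31 and 0.12 over all features.

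Of 4 genes for rRNA transcription and processing, 1 rose and 1 fell in A306 against A798 (37.9% and 9.6% of all features), 2 rose and 1 fell in XH against A798 (25.7% and 8.02%), and 0 were called in A306 against XH (36.5% in either direction). A nucleolar protein family A member 2 gene (BGIBMGA000029), whose family takes part in pseudouridylation of rRNA, was higher in both lighter strains by log2 changes of 1.47 and 1.21 (adjusted p = 0.000241 and 0.00102, A306 and XH against A798), and RPA43_N (BGIBMGA007222), named for a domain of an RNA polymerase I subunit, was lower by -1.03 and -0.89 (adjusted p = 0.000542 and 0.00177). Both calls held under the 4 other scalings. The UTP11-like gene (BGIBMGA013703), a part of the U3 complex, rose in XH against A798 as deposited (0.48, adjusted p = 0.0387) and was called under 0 of the 4 other scalings. The 2 genes that changed in both comparisons moved in opposite directions. As deposited, 5.8S, small subunit and large subunit rRNA passed the test in neither; under the same 4 other scalings small subunit rRNA was called lower in A306 against A798 (adjusted p between 0.000785 and 0.0410).

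For tRNA, no model was above 0, but genes for tRNA processing and charging were measured. Of 11 genes matched 9 were tested, of which 6 rose and 0 fell in A306 against A798 (37.9% and 9.6% of all features), 6 rose and 0 fell in XH against A798 (25.7% and 8.02%), and 1 rose and 0 fell in A306 against XH (23.1% and 13.4%). Under each of the other 4 scalings 5 or 6 rose in each comparison with A798. In A306 against XH the 1 that rose as deposited, the tRNA-splicing ligase RtcB homolog (BGIBMGA006828, 0.21, adjusted p = 0.0226), was called under 0 of the 4 other scalings, and 1 or 2 genes fell. The median change of the 9 was 0.58, 0.45 and 0.03 in the 3 comparisons, and 0.31, 0.19 and 0.12 over all features. A tRNA pseudouridine synthase gene (BGIBMGA008689) stood at 9.97 ± 1.59 FPKM in A306, 8.09 ± 1.58 in XH and 3.89 ± 0.692 in A798 (SD, n = 3 each; log2 changes 1.17 and 0.89 against A798, adjusted p = 0.000903 and 0.00552). The ligases that charge tRNA with glycine (BGIBMGA007637) and with alanine (BGIBMGA006216) rose by 0.89 and 0.85 in A306 and by 0.94 and 0.82 in XH against A798, with adjusted p of 2.44e-06 and 1.1e-05 in A306 and 3.07e-06 and 2.13e-05 in XH. A306 and XH were set against the same A798 libraries, so these 2 comparisons are not independent. Argonaute 1 (AGO1), the one matched gene for microRNA function, ranged from 0.40 to 1.05 FPKM and was not tested.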

How the data were processed

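RNA-seq of 9 silk gland libraries was analysed from the authors' deposited table of FPKM, given to 2 decimals. StringTie 1.3.3b, fastp 0.19.5 and DESeq2 1.24.0 are listed in the submitters' processing notes; which aligner, build and gene models were used is not given in the sources used here. Another deposited table held FPKM of 5 genes, none a noncoding RNA model, and was not used. No counts were analysed, so depth and counting error are unknown. Identifiers of 0 of the noncoding RNA models matched the RefSeq gene table, so no positions or sequences are given.

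Features with at least 1 FPKM in at least 3 libraries were tested (4636, including 24 of the 25 members). Strain means were fitted to log2(FPKM + 1) of all 9 libraries with limma 3.58.1 in R 4.3.3, with a variance trend and Benjamini-Hochberg adjustment over all features, two-sided, at 0.05; such fold changes are understated for low values. Single values were compared by exact permutation tests, and correlations by enumerating 362880 pairings (SciPy 1.17.1). Only the limma fit was tested on simulated data, with independent normal noise. Alternatives were other pseudocounts, filters and scalings, a replicate block, 2 strains only, and leaving out libraries. All tested members were named with values, as were up to 3 called protein genes per list and comparison with the largest change. The members and lists were chosen with earlier results of these data known.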

Additional observations from a re-analysis of the deposited data

How the results depend on the processing

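The number of models called, 0 in each comparison, changed with the scaling in both comparisons of A306. For A306 against A798 it was 1 with TMM scaling, median centring, quantile normalization and an equal BGIBMGA sum, 2 relative to the mean log2 of the rRNA models, and 0 to 2 when 1 library was left out. For XH against A798 it was 0 under every scaling and 0 to 1 when 1 library was left out. For A306 against XH it was 1 with a pseudocount of 0.1, TMM scaling, quantile normalization and an equal BGIBMGA sum, 2 relative to the rRNA mean, with only the 2 strains compared and with A798 replicate 3 and XH replicate 3 left out together (chosen after seeing the data), and 0 to 2 when 1 library was left out. The model called under the general scalings was small subunit rRNA; fewer samples or another spread estimate enter the fits without a library, and the cause of the other changes was not tested.

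The difference in rRNA share between XH and A798 was 1.22 percentage points with both of those libraries left out, and A306 minus XH ran from -2.40 to 0.0646 when 1 library was left out. Uncalled log2 changes that turned were, for 5.8S rRNA (ENSRNA022709902), 0.10 in A306 against A798, 0.29 in XH against A798 and -0.20 in A306 against XH with both libraries out, and -0.95 to 0.10, and -0.20 to 0.54, in the first and last when 1 was out. For small subunit rRNA (ENSRNA022710110) in XH against A798 they were -0.17 with TMM scaling, -0.16 with median centring, and -0.18 to 0.37 when 1 library was out. For large subunit rRNA (ENSRNA022711067) they were 0.10 relative to the rRNA mean and 0.16 with both out in XH against A798, and -0.32 to 0.0295 when 1 was out in A306 against XH. For ENSRNA022711346 they were 0.47 with both out in XH against A798; in A306 against XH they were -0.0195 with TMM scaling, -0.056 with quantile normalization, -0.13 relative to the rRNA mean, -0.47 with both out, and -0.47 to 0.45 when 1 was out.

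With the replicate number as a replicate block, 0 models were called in each comparison, and the exact p of the share differences was 0.5, 0.75 and 1.0. This p came from flipping the signs of the differences between libraries of the same number. With so few pairs it cannot fall below 0.05, so nothing is concluded from it. Deviations from strain means correlated at 0.000389 to 0.0626 between libraries of the same number and at -0.0927 to 0.0363 between others. All of these were small, though those of the same number were all above 0. Whether the numbers pair the libraries was not tested. Results for single models were tallied over the alternatives for ENSRNA022709902, ENSRNA022710110, ENSRNA022711067 and ENSRNA022711346 in every comparison. ENSRNA022711380 and ENSRNA022711393 were added in XH against A798 and in A306 against XH. Of these results, 331 kept their direction and side of the threshold, 18 passed it and 17 turned. Other members were not tallied, so the calls of ENSRNA022709899, ENSRNA022711225 and ENSRNA022711201 given above are not among the 18. Depth is unknown, so no counting error can be given for the models above 0 in few libraries.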
